A study of Mus musculus with 14 samples.

Results

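The BCL2 family genes described here were 10 genes chosen by name, and all 10 were found among the 55414 genes of the deposited count table. They comprise the anti-apoptotic genes Bcl2a1a, Bcl2a1b, Bcl2a1d, Bcl2l1 (encoding BCL-XL), Bcl2 and Mcl1, the BH3-only genes Bcl2l11 (BIM), Pmaip1 (NOXA) and Bbc3 (PUMA), and the pore-forming effector Bax. Of these, 9 had enough counts to be tested with the 12851 genes that passed the filter, and Bcl2a1a did not. RNA came from wildtype C57BL/6N primary bone marrow-derived macrophages (pBMDMs), differentiated with and kept in M-CSF, that had been exposed for 24 h to cell-free fluids. The supernatants were conditioned by Pfa1 MEFs, a fibroblast line that loses the lipid hydroperoxidase gene Gpx4 and dies by ferroptosis when 4-hydroxytamoxifen (4OHT) is added. Supernatants came from untreated MEFs (ctrl), from MEFs with 4OHT (4OHT, labelled Tam), from MEFs with 4OHT and the ferroptosis inhibitor Ferrostatin-1 (4OHT+Fer1) and from MEFs with Ferrostatin-1 alone (Fer1), each with 3 replicates. Fresh medium (medium) had 2 replicates, which gives 14 samples in 5 groups. The pBMDMs themselves carried no deletion, and the mice were a few weeks old. The effects of 4OHT or Ferrostatin-1 carried over with a supernatant and of what the MEFs released cannot be told apart.

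Proteins of the BCL2 family decide whether the outer mitochondrial membrane is opened during apoptosis. The anti-apoptotic members hold BAX and BAK in check, BH3-only proteins bind the anti-apoptotic members and can activate BAX, and BAX then forms pores through which cytochrome c leaves the mitochondrion. In myeloid cells, A1 (the product of the Bcl2a1 genes) and BCL-XL are known as inducible survival proteins, MCL1 as a short-lived one, and BIM as a protein that rises when growth factor signals are withdrawn.

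The 3 Bcl2a1 genes are near-identical copies on chromosome 9 of GRCm38 (GENCODE M21). Bcl2a1b lies at chr9:89199209-89207827 on the plus strand, Bcl2a1d at chr9:88723285-88731914 on the minus strand and Bcl2a1a at chr9:88956900-88962419 on the plus strand. The annotated transcript of Bcl2a1b, 817 bases long, differed from that of Bcl2a1d at 7 aligned bases (99.14% identity) and from that of Bcl2a1a at 15 (98.16% identity). The last 90 coding bases are shown because the Bcl2a1b and Bcl2a1d transcripts have their last difference there, in capitals, T641A counted from 1 at the 5′ end of the Bcl2a1b transcript, and because reads were taken from the 3′ end.
Bcl2a1b: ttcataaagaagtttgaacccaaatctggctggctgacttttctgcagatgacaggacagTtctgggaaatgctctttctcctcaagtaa
Bcl2a1d: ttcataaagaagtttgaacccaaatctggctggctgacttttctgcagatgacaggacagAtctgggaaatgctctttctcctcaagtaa
Bcl2a1a: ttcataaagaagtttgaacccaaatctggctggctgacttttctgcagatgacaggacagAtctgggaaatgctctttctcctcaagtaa
After that base, the remaining 176 bases of the Bcl2a1b transcript were identical in Bcl2a1d, whose annotated transcript runs slightly further.

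Bcl2a1a differed from both other copies once after the stop codon, at A732T. The 30 bases around it are shown, with the differing base in capitals, because this is the base nearest to the 3′ end that sets any copy apart.
Bcl2a1b: gcacttggcatttccAtttacaaacatgaa
Bcl2a1d: gcacttggcatttccAtttacaaacatgaa
Bcl2a1a: gcacttggcatttccTtttacaaacatgaa
Reads were 50 bases long. Of the 151 windows of 50 bases in the last 200 bases of each transcript, 24 (15.9%) were found in Bcl2a1b alone, 0 in Bcl2a1d alone and 50 (33.1%) in Bcl2a1a alone. In the last 100 bases, Bcl2a1b and Bcl2a1d had 0 such windows of 51. A read from these stretches therefore often belonged to more than 1 copy by sequence, and its count was divided between them by estimation.

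**Figure D1:**
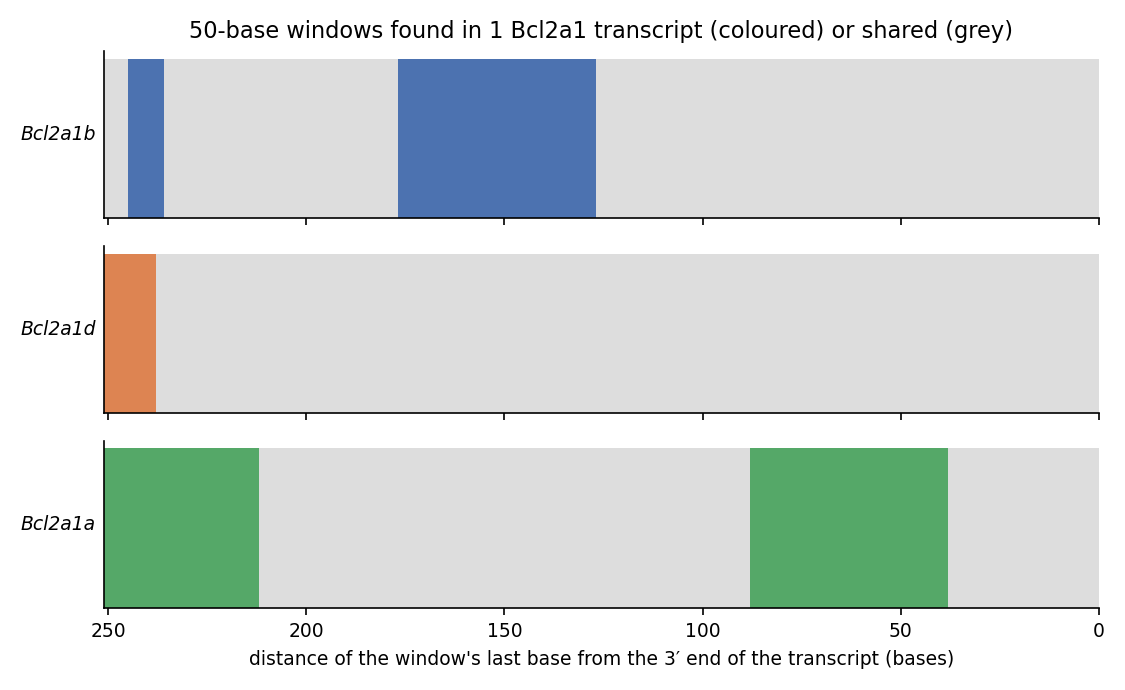
Windows of 50 bases along the last part of the Bcl2a1b, Bcl2a1d and Bcl2a1a transcripts, by the distance of the window's last base from the annotated 3′ end (x axis, bases); coloured windows were found in that transcript alone and grey windows also in another Bcl2a1 transcript or the overlapping Gm29094. No window of Bcl2a1d was coloured in the last 200 bases.

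Fractions in the estimated counts were seen in these copies and not in the other members. A fraction (more than 0.01 from a whole number) stood in the counts of Bcl2a1b in 13 of 14 samples, of Bcl2a1d in 13 and of Bcl2a1a in 7. The sum of the 3 genes had a fraction in 1 of 14 samples, and the other 7 members in 0 of 14. Bcl2a1a had estimated counts of 4.815 and 7.757 in medium, 4.95 in replicate 1 of 4OHT and less in every other supernatant sample, with 0 in 7 samples. It is therefore given no fold change, since in most samples it lay under the 3 counts taken as the smallest amount told from none. The sum of the 3 copies, called the Bcl2a1 sum below, does not depend on the division among them.

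Levels are given as CPM, the usual scale of a gene's counts relative to the total of its sample, with TMM scaling, for replicates in the order of their numbers. Total counts per sample lay between 7823051 and 11052352, so that 3 counts corresponded to 0.272 to 0.381 CPM. All 10 macrophage markers fixed for the check of the cells were tested, and their summed level lay between 23053 and 48173 CPM over all samples, against 16.6 to 127 CPM for 10 fibroblast markers, 28.0 to 112 CPM for 10 neutrophil and precursor markers, 6.33 to 23.3 CPM for 8 dendritic cell markers, 0.552 to 3.50 CPM for 8 lymphocyte markers and 0.220 to 4.19 CPM for 6 mast cell and basophil markers. Of the lymphocyte markers 5 were at 0 in every sample, as were 2 of the mast cell and basophil markers and 2 of the neutrophil markers. Replicate 3 stood apart in each supernatant group, with mitochondrial genes taking 8.50% to 10.6% of counts against 4.53% to 6.61% in replicates 1 and 2. Medium had no replicate 3, and its replicates 1 and 2 were at 5.46% and 7.77%. In such bulk RNA, fewer cells of a type and less RNA per cell cannot be told apart. Since all groups entered 1 fit and the comparisons share their ctrl, 4OHT or medium samples, values from different comparisons are not independent.

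**Figure D2:**
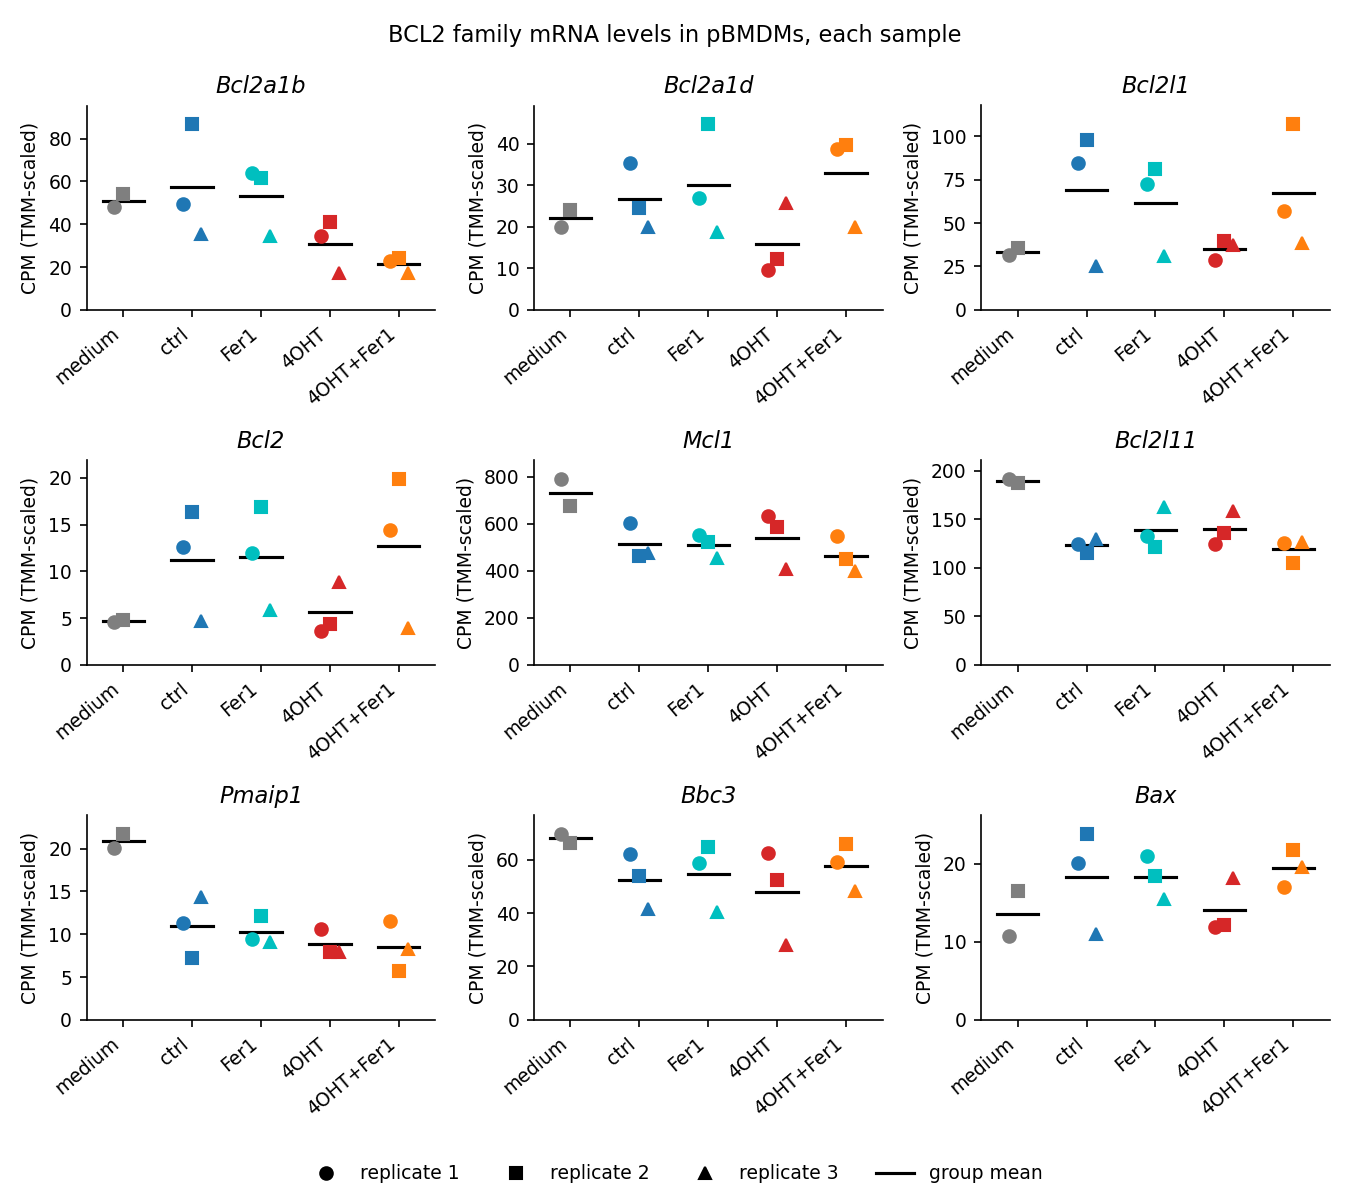
Level of each of the 9 tested genes in every sample (y axis, TMM-scaled CPM, from 0; scales differ between panels) by group (x axis), with 1 marker shape for each replicate number and a bar at the group mean. Replicate 3 of ctrl, Fer1 and 4OHT+Fer1 (triangles) lay below replicates 1 and 2 for Bcl2l1 and Bcl2, while the 2 medium samples lay above all supernatant samples for Bcl2l11, Pmaip1, Mcl1 and Bbc3.

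The first comparison asked what the supernatant of ferroptotic MEFs did against that of untreated MEFs. Expression of Bcl2a1b, a copy of the A1 survival gene, fell in 4OHT, and it was the 1 member of 9 tested that passed, while 1.49% of all tested genes passed at an adjusted p under 0.05. Bcl2a1b stood at 49.6, 86.8 and 35.3 CPM in ctrl and at 34.5, 41.1 and 17.2 CPM in 4OHT. The ranges overlapped, and each 4OHT sample was below the ctrl sample of its own number. The log2 fold change was -0.89 (SE 0.19; 95% interval -1.30 to -0.48; quasi-likelihood test of edgeR, Benjamini-Hochberg adjusted p = 0.0396). Without the replicate number in the model the same change, -0.89, had an edgeR adjusted p of 0.627. Leaving out replicate 1, 2 or 3 gave -1.06, -0.76 and -0.84, none of which passed. Of all genes, 7 passed without the replicate number, and 2, 0 and 249 passed without replicates 1, 2 and 3.

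The Bcl2a1 sum gave the same picture without the division of reads. It stood at 85.1, 112 and 55.2 CPM in ctrl and at 44.7, 53.4 and 43.0 CPM in 4OHT. Here the groups did not overlap, as was the case for 5.85% of all tested genes lower in 4OHT, and the log2 fold change was -0.78 (SE 0.16; 95% interval -1.13 to -0.42; edgeR, adjusted p = 0.0402). The difference within replicate numbers was -0.93, -1.06 and -0.36 log2 CPM. Without the replicate number the sum had an edgeR adjusted p of 0.487, while its change was -0.71 without replicate 1 (adjusted p = 0.560) and -0.62 without replicate 2 (adjusted p = 0.868). Bcl2a1d, the other abundant copy, stood at 35.3, 24.6 and 19.9 CPM in ctrl and at 9.69, 12.3 and 25.8 CPM in 4OHT, and its change of -0.70 did not pass (edgeR, adjusted p = 0.628).

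Bcl2l1 and Bcl2, the other inducible and the founding survival gene of the family, did not pass over all 3 replicates. Their replicates moved in opposite directions. Bcl2l1 was at 84.9, 98.0 and 25.1 CPM in ctrl and at 28.9, 39.6 and 37.5 CPM in 4OHT, so that the difference within replicate numbers was -1.55, -1.30 and 0.58 log2 CPM. Bcl2 was at 12.6, 16.4 and 4.64 CPM in ctrl and at 3.58, 4.35 and 8.86 CPM in 4OHT, with differences of -1.75, -1.86 and 0.90. Both genes were lower in 4OHT in replicates 1 and 2, and higher in replicate 3, whose ctrl sample was lower than those of replicates 1 and 2. The log2 fold changes over 3 replicates were -0.74 for Bcl2l1 (SE 0.33; edgeR, adjusted p = 0.439) and -0.74 for Bcl2 (SE 0.53; edgeR, adjusted p = 0.722).

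The same split by replicate was seen in Bcl2a1d, with differences of -1.84, -0.98 and 0.37 log2 CPM, and in the effector gene Bax, with -0.74, -0.96 and 0.71. Bax was at 20.1, 23.8 and 11.04 CPM in ctrl and at 11.9, 12.1 and 18.2 CPM in 4OHT, and did not pass (log2 fold change -0.35; edgeR, adjusted p = 0.761). When replicate 3 was left out, 3 members passed, with 1.99% of 12516 tested genes passing. They were Bcl2 (log2 fold change -1.87; edgeR, adjusted p = 0.00497), Bcl2l1 (-1.44; adjusted p = 0.00877) and Bcl2a1d (-1.47; adjusted p = 0.0247), while Bcl2a1b no longer did (-0.84; adjusted p = 0.0881). The parts of the higher mitochondrial share of replicate 3 and of its lower ctrl level in these results were not tested.

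**Figure D3:**
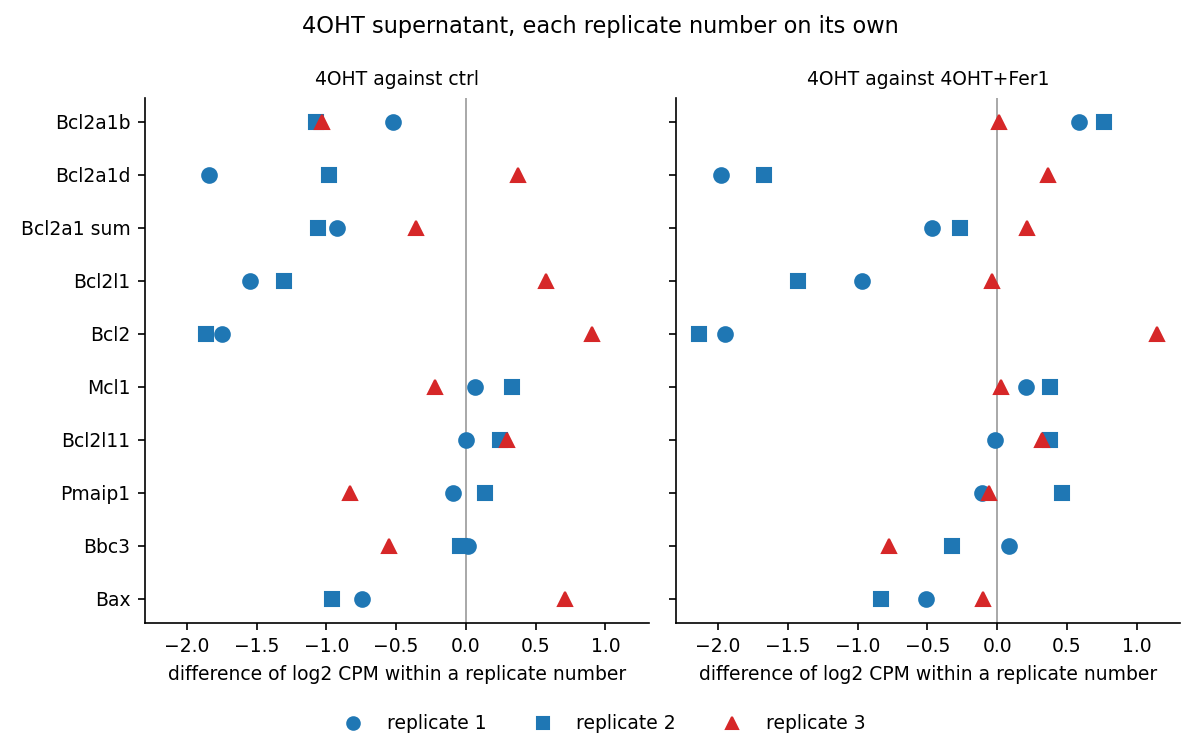
Difference of log2 CPM (x axis, prior count 2) between the 4OHT sample and the ctrl sample (left) or the 4OHT+Fer1 sample (right) of the same replicate number, for each tested gene and the Bcl2a1 sum (y axis); red triangles are replicate 3. In the left panel Bcl2l1, Bcl2, Bcl2a1d and Bax lay below 0 in replicates 1 and 2 and above 0 in replicate 3.

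Replicate 3 also differed on average over the 4 supernatant groups, but not in the same way in each. In 4OHT, Bcl2l1 was at 28.9, 39.6 and 37.5 CPM and Bcl2 at 3.58, 4.35 and 8.86 CPM, so replicate 3 was not the lowest there. Over the 4 supernatants the mean level of replicate 3 was 0.465 times that of the other replicates for Bcl2l1, 0.464 times for Bcl2, 0.540 times for Bcl2a1b and 0.661 times for Bbc3. It was 1.17 times for Bcl2l11, 1.05 times for Pmaip1 and 0.796 times for Mcl1. The survival genes Bcl2l1 and Bcl2 were thus the tested members with the lowest ratios in replicate 3. In log2 CPM, replicate 3 lay below replicates 1 and 2 by -1.003 for Bcl2l1, -0.95 for Bcl2 and -0.83 for Bcl2a1b, below the 5th percentile of all tested genes at -0.75 but above the 1st percentile at -1.48.

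The remaining members did not pass between 4OHT and ctrl. Mcl1, encoding the short-lived survival protein, stood at 604, 464 and 473 CPM in ctrl and at 632, 584 and 406 CPM in 4OHT (log2 fold change 0.06; 95% interval -0.23 to 0.35). Bcl2l11 stood at 124.5, 115.1 and 129.2 CPM in ctrl and at 124.4, 136.1 and 158.8 CPM in 4OHT (0.18; 95% interval -0.10 to 0.46). Neither interval reached a log2 fold change of 1 in either direction. Bbc3 and Pmaip1, both p53-inducible BH3-only genes, differed by -0.18 (95% interval -0.53 to 0.18) and -0.29 (95% interval -0.91 to 0.32), which did not pass. The median log2 fold change of the 9 tested members was -0.35, and that of all tested genes was 0.01.

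The second comparison, of 4OHT with 4OHT+Fer1, asked which of these levels depended on ferroptosis of the MEFs that received 4OHT. Here 0 of 9 members passed by edgeR, where 1.35% of all tested genes did, and 3 members had an unadjusted p under 0.05, as did 11.8% of all genes. DESeq2 also passed 0 members, and 3.1% of all tested genes. Of 5 tested fibroblast markers 1 passed in this comparison, Col1a1, with a log2 fold change of -1.14 (edgeR, adjusted p = 0.0456). The 5 lay between -1.47 and 0.69, with a median of -0.24, so they did not share a direction. Their part in the members' values was not tested. The supernatant of 4OHT+Fer1 MEFs gave Bcl2a1b levels of 22.9, 24.1 and 17.02 CPM, so that Bcl2a1b was 0.46 higher in 4OHT on the log2 scale (95% interval 0.05 to 0.88; edgeR, adjusted p = 0.348). Bcl2a1d was at 38.8, 39.8 and 20.04 CPM in 4OHT+Fer1, and the log2 difference was -0.98 (95% interval -1.88 to -0.07; edgeR, adjusted p = 0.374). The copies thus differed in sign. The Bcl2a1 sum stood at 61.7, 64.1 and 37.1 CPM, and 4OHT differed from it by -0.16 (95% interval -0.52 to 0.19; edgeR, adjusted p = 0.795).

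Bcl2 again split by replicate, and the difference of Bcl2l1 was near 0 in replicate 3. Bcl2l1 was at 56.8, 107 and 38.5 CPM in 4OHT+Fer1, and 4OHT was lower by 0.97 and 1.43 log2 CPM in replicates 1 and 2, with a difference of -0.04 in replicate 3. Its log2 fold change was -0.75 (SE 0.33; edgeR, adjusted p = 0.384). Bcl2 was at 14.4, 19.9 and 3.89 CPM in 4OHT+Fer1, and the differences were -1.95, -2.14 and 1.14, with a log2 fold change of -0.88 (edgeR, adjusted p = 0.586). Without replicate 3, when 2.39% of 12516 genes passed, the same 3 members passed as against ctrl, namely Bcl2 (-2.08; edgeR, adjusted p = 0.00338), Bcl2a1d (-1.82; adjusted p = 0.0116) and Bcl2l1 (-1.21; adjusted p = 0.0184). The other members did not pass, with log2 differences of 0.21 for Mcl1, 0.23 for Bcl2l11, 0.08 for Pmaip1, -0.33 for Bbc3 and -0.45 for Bax over all replicates.

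Whether the effect of 4OHT differed without and with Ferrostatin-1 was tested as an interaction. By edgeR 0 of 9 members and 0.0311% of all genes passed, and by DESeq2 0 members and 0.646% of all genes. In the edgeR test 1 member had an unadjusted p under 0.05, as did 6.20% of all genes. The interaction was -0.86 for Bcl2l1 (95% interval -1.86 to 0.13; edgeR, adjusted p = 0.904) and 0.39 for Bcl2l11 (95% interval 0.00 to 0.78; adjusted p = 0.804). It was -0.84 for Bcl2a1d, -0.81 for Bcl2, -0.43 for Bax, -0.28 for Bbc3, 0.40 for Bcl2a1b, 0.20 for Mcl1 and 0.01 for Pmaip1.

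Bcl2a1b was also lower in 4OHT+Fer1 than in ctrl. It was the 1 member of 9 that passed there, with 0.0311% of all genes passing. All 3 samples of 4OHT+Fer1 lay below all 3 of ctrl, as in 2.85% of all tested genes, and the log2 fold change was -1.35 (SE 0.19; 95% interval -1.77 to -0.94; edgeR, adjusted p = 0.0367). Without the replicate number in the model its edgeR adjusted p was 1. Leaving out replicate 1, 2 or 3 gave -1.47, -1.07 and -1.54, and none passed, in fits where 0, 3 and 2 genes of all passed. The Bcl2a1 sum differed by -0.61 in the same comparison (95% interval -0.97 to -0.26; edgeR, adjusted p = 0.948). The other members lay between -0.37 for Pmaip1 and 0.28 for Bcl2a1d, with Bcl2l1 at 0.01, Bcl2 at 0.14, Mcl1 at -0.15, Bcl2l11 at -0.05, Bbc3 at 0.15 and Bax at 0.10. Against Fer1, which was at 63.7, 61.7 and 34.4 CPM, Bcl2a1b was again lower in all samples of 4OHT+Fer1, as in 3.21% of all tested genes. The log2 fold change of -1.28 (SE 0.19) did not pass by edgeR (adjusted p = 0.0603). It did by DESeq2 (adjusted p = 4.89e-06), as did 0.0856% of all genes. In that comparison 0 of 9 members and 0.0233% of all genes passed by edgeR, and 1 member had an unadjusted p under 0.05, as did 2.07% of all genes. The other members lay between -0.30 for Pmaip1 and 0.14 for Bcl2a1d.

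The share of Bcl2a1b in the Bcl2a1 sum moved with these results. It was 58.3%, 77.8% and 63.9% in ctrl (mean 66.7% ± 10.0, SD, n = 3), 64.3% ± 6.17 in Fer1 (SD, n = 3) and 69.2% ± 1.27 in medium (SD, n = 2). In 4OHT+Fer1 it was 37.1%, 37.5% and 45.9% (40.2% ± 4.98, SD, n = 3). In 4OHT it was 77.1% and 76.9% in replicates 1 and 2 but 39.9% in replicate 3. The share was thus lowest in all samples of 4OHT+Fer1 and in 1 sample of 4OHT, and the part of the estimation in it was not tested. Of the values for single copies, the fall of Bcl2a1b in 4OHT was shared by the sum, at -0.78 against ctrl. In 4OHT+Fer1 the sum was also lower than in ctrl, with a log2 fold change of -0.61 (95% interval -0.97 to -0.26). Its differences within replicate numbers were -0.46, -0.80 and -0.57 log2 CPM. Against Fer1 the sum differed by -0.60 (95% interval -0.96 to -0.25). The single copy passed against ctrl, while the sum passed in neither comparison, where 0.0311% and 0.0233% of all tested genes passed.

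**Figure D4:**
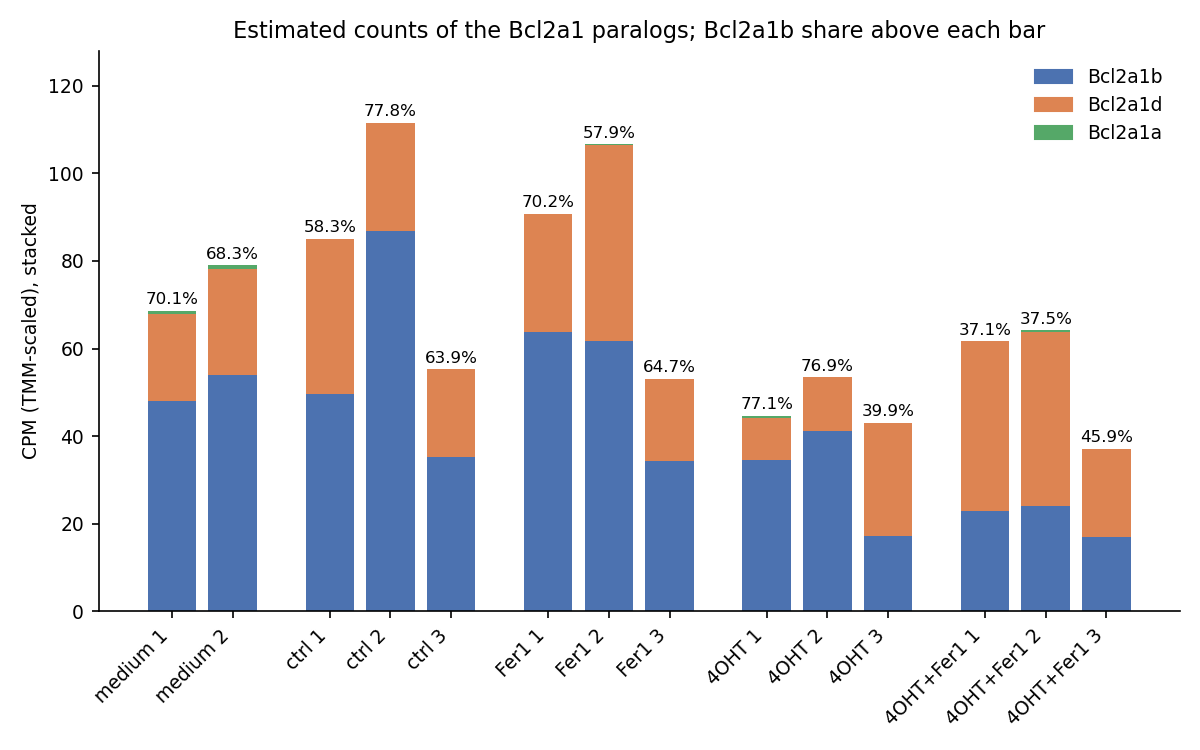
Levels of Bcl2a1b, Bcl2a1d and Bcl2a1a in each sample (y axis, TMM-scaled CPM, stacked from 0), with the percentage of Bcl2a1b in the estimated counts of the 3 genes above each bar. The stacked height lay between 43.0 and 53.4 CPM in 4OHT and between 55.2 and 112 CPM in ctrl.

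Ferrostatin-1 alone was compared with ctrl to show what the inhibitor did without 4OHT. By edgeR, 0 of 9 members and 0% of all tested genes passed. An unadjusted p under 0.05 was seen in 0 members and 1.14% of all genes. DESeq2 passed 0 members and 0.0233% of all genes. Bcl2l1 stood at 72.7, 81.2 and 31.3 CPM in Fer1 and Bcl2 at 12.0, 16.9 and 5.84 CPM, both with the low replicate 3 also seen in ctrl. The member differences lay between -0.11 for Bcl2l1 and 0.16 for Bcl2l11 (95% interval -0.12 to 0.44). The interval of Bcl2 was wide, from -1.002 to 1.14. It is not adjusted over all tested genes, so differences of that size or larger could also have failed to pass.

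Fresh medium was compared with ctrl supernatant, which had been conditioned by live MEFs. Expression of Bcl2l11, which encodes the BH3-only protein BIM, rose in medium, where both samples, at 191 and 187 CPM, lay above all 12 supernatant samples. The ctrl samples were at 124.5, 115.1 and 129.2 CPM, and the log2 fold change was 0.70 (SE 0.14; 95% interval 0.38 to 1.01; edgeR, adjusted p = 0.00823). It was the 1 member of 9 that passed, which is near the 10.9% share of all tested genes. Without the replicate number the change was 0.62 (edgeR, adjusted p = 0.0676). Leaving out replicate 1 or 2, which leaves 1 medium sample, gave 0.75 and 0.67, neither of which passed, in fits where 157 and 87 genes of all passed.

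Other members also stood apart in medium without passing. Pmaip1, encoding the MCL1-binding protein NOXA, was at 20.1 and 21.7 CPM in medium and at 11.3, 7.24 and 14.4 CPM in ctrl, with a log2 difference of 0.98 (95% interval 0.29 to 1.67; edgeR, adjusted p = 0.0697; DESeq2, adjusted p = 0.0333). Mcl1 was at 789 and 673 CPM in medium, above all supernatant samples, with a log2 difference of 0.40 from ctrl (95% interval 0.07 to 0.74; edgeR, adjusted p = 0.120). Bbc3 was at 69.6 and 66.4 CPM in medium, above 62.0, 54.0 and 41.4 CPM in ctrl, with a difference of 0.19 (edgeR, adjusted p = 0.596). With Bcl2l11 these were 4 members whose medium samples lay above every supernatant sample, as did those of 6.51% of all tested genes. Bcl2a1b, Bcl2a1d and Bax, with log2 differences of -0.37, -0.36 and -0.47, overlapped ctrl and did not pass.

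Bcl2l1 and Bcl2 were low in medium. Bcl2l1 was at 31.5 and 35.7 CPM, below ctrl replicates 1 and 2 and above ctrl replicate 3, with a log2 difference of -1.21 (95% interval -2.03 to -0.39; edgeR, adjusted p = 0.0603; DESeq2, adjusted p = 0.0181). Bcl2 was at 4.57 and 4.78 CPM, with a log2 difference of -1.43 (95% interval -2.75 to -0.10; edgeR, adjusted p = 0.171). Without replicate 3, when 11.9% of all genes passed, both did, at -1.45 for Bcl2l1 (edgeR, adjusted p = 0.00119) and -1.62 for Bcl2 (adjusted p = 0.00145). In mean level the order for Bcl2l1 was medium (33.6 CPM), 4OHT (35.3), Fer1 (61.7), 4OHT+Fer1 (67.4) and ctrl (69.3), and each neighbour in this order overlapped the next. For Bcl2 the order was medium (4.68 CPM), 4OHT (5.60), ctrl (11.2), Fer1 (11.6) and 4OHT+Fer1 (12.7), also with all neighbours overlapping. These supernatant means and ranges include replicate 3, which medium lacks. In replicates 1 and 2 alone, Bcl2 in 4OHT, at 3.58 and 4.35 CPM, lay below medium. In those replicates both genes were lower in medium than in ctrl, Fer1 and 4OHT+Fer1, without overlap. For the Bcl2a1 sum, 4OHT (47.0 CPM) and 4OHT+Fer1 (54.3) overlapped each other and both lay below medium (73.8), while medium, Fer1 (83.5) and ctrl (84.0) overlapped. In replicates 1 and 2 alone, medium, at 68.6 and 79.0 CPM, lay below Fer1 (90.8 and 107) and ctrl (85.1 and 112). There 4OHT (44.7 and 53.4 CPM) also lay below 4OHT+Fer1 (61.7 and 64.1).

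Some markers of cell type also differed in medium, in a comparison with ctrl where 10.9% of all tested genes passed. Of 10 macrophage markers 3 passed, all higher in medium, namely Fcgr1 (0.80), Mertk (0.79) and Adgre1 (0.73). The 10 lay between -0.33 and 1.13. Itgam was lower in medium, at 511 and 602 CPM against 677, 636 and 940 CPM in ctrl, and did not pass. Of the 5 tested fibroblast markers, Col1a2 (1.22) and Col1a1 (1.17) passed, both higher in medium. Col3a1 was lower in medium (-0.74) and did not pass. Of 5 tested neutrophil markers, Ngp (1.88) and S100a8 (1.49) passed, both higher in medium. These values are log2 fold changes, and passing was at an edgeR adjusted p under 0.05. Mmp8, the tested neutrophil marker with the highest level in ctrl, was at 15.0 and 16.6 CPM in medium and at 19.4, 22.2 and 92.6 CPM in ctrl (-0.81) and did not pass, and the summed neutrophil level, 53.2 and 72.2 CPM in medium, lay within the 35.1 to 95.5 CPM of ctrl. The summed fibroblast level was 112 and 35.2 CPM in the medium samples, 19.2 to 53.8 CPM in ctrl and 20.7 to 127 CPM in Fer1. The part of these markers in the differences of Bcl2l11 was not tested.

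4OHT supernatant was compared with fresh medium directly. Pmaip1 was lower in 4OHT, at 10.6, 7.98 and 7.97 CPM against 20.1 and 21.7 CPM, with a log2 fold change of -1.27 (SE 0.31; 95% interval -1.95 to -0.60; edgeR, adjusted p = 0.0400). It was the 1 member of 9 that passed, against 4.26% of all tested genes, and 4 members had an unadjusted p under 0.05, as did 15.8% of all genes. Without the replicate number the change was -1.23 (edgeR, adjusted p = 0.0914), and scaled by total counts it was -1.18 (adjusted p = 0.0623). Leaving out replicate 1, 2 or 3 gave -1.57, -1.02 and -1.20, none of which passed, in fits where 2, 0 and 712 genes of all passed. Bcl2l11 differed by -0.52 (95% interval -0.83 to -0.20; edgeR, adjusted p = 0.0703; DESeq2, adjusted p = 0.0108), with no overlap between the groups. Bcl2a1b, the Bcl2a1 sum, Mcl1 and Bbc3 were likewise below both medium samples in every 4OHT sample, with log2 differences of -0.52, -0.42, -0.34 and -0.36, and none of these passed. Of all tested genes 13.9% lay below medium in the same way. Bcl2l1 differed by 0.46 (95% interval -0.37 to 1.30), Bcl2a1d by -0.33 and Bax by 0.12. The fitted difference of Bcl2 was 0.69 (95% interval -0.72 to 2.09), but within replicates 1 and 2 it was -0.33 and -0.13, and in a fit of these groups alone it was -0.26, so its sign turned. Fcgr1 (-1.11), Col1a1 (-1.53) and Col1a2 (-1.14) passed in the same comparison, all lower in 4OHT. The 10 macrophage markers lay between -1.11 and 0.19, and the 5 tested fibroblast markers between -2.24 and -0.32. The part of these markers in the members' values was not tested.

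**Figure D5:**
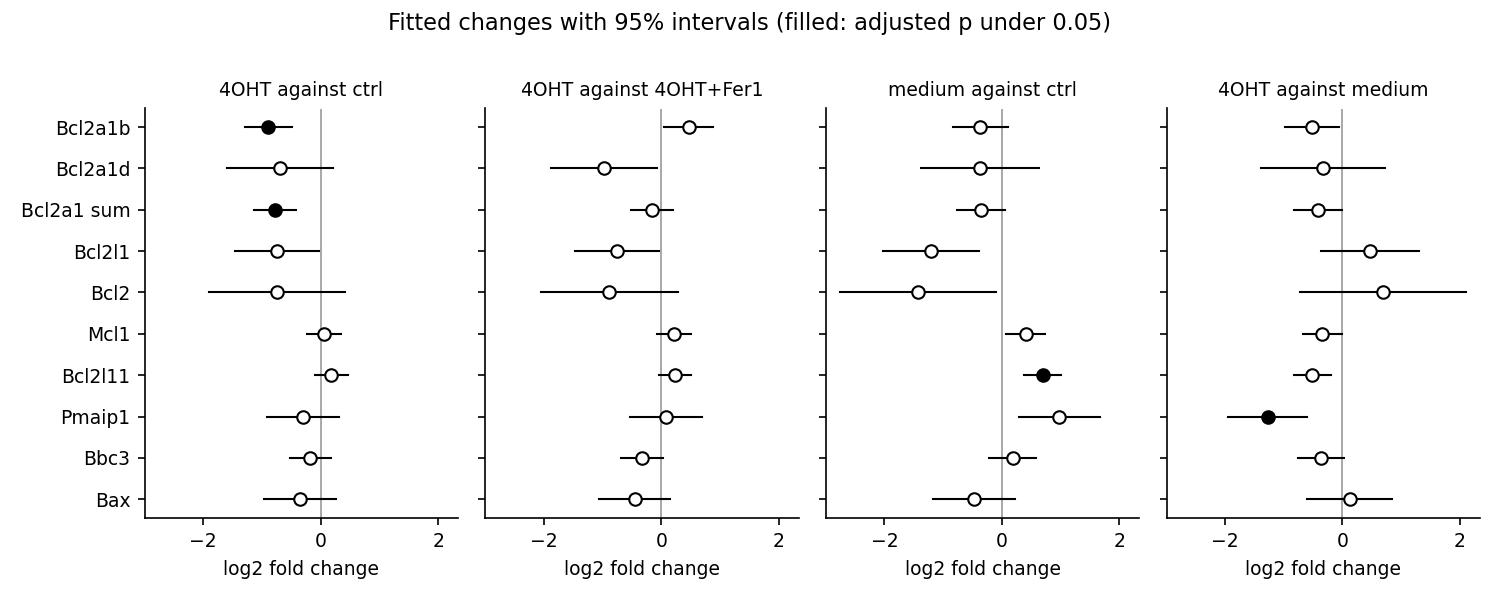
Fitted log2 fold change (x axis) of each tested gene and the Bcl2a1 sum (y axis) in 4 comparisons, with 95% intervals; filled points passed at an adjusted p under 0.05 by edgeR. Filled points are Bcl2a1b and the Bcl2a1 sum in 4OHT against ctrl, Bcl2l11 in medium against ctrl and Pmaip1 in 4OHT against medium.

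Other genes of the apoptotic pathway were counted as lists. Of 12 other BCL2 family genes, among them the effector gene Bak1 and the BH3-only genes Bid and Bmf, 8 were tested and 0 passed in any of the 8 comparisons. The same held for 12 genes of the apoptosome and caspases, 5 caspase inhibitors and 8 death receptors and adapters, all tested, with 0 passing. Of all tested genes between 0% (Fer1 against ctrl) and 10.9% (medium against ctrl) passed, so 0 passing says little for such short lists. In 4OHT against ctrl the median log2 fold change was -0.16 for the other BCL2 family genes, 0.08 for the apoptosome and caspases and 0.04 for the caspase inhibitors, against 0.01 for all tested genes. Of 13 listed p53 target genes 11 were tested. In medium against ctrl, where 10.9% of all genes passed, 3 passed, Plk2 (1.25) higher and Zmat3 (-1.03) and Gtse1 (-4.06) lower. Gtse1 was at 0.381 and 0.556 CPM in medium, near the limit of 3 counts, and at 2.23, 7.64 and 14.4 CPM in ctrl. Its SE was 1.20 (edgeR, adjusted p = 0.0494). In 4OHT against medium 1 passed (4.26% of all genes did), Zmat3 (0.84), higher in 4OHT.

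NF-kB is known to induce Bcl2a1 genes and Bcl2l1, and FOXO factors are known to induce Bcl2l11. Of 13 other NF-kB target genes, all tested, 1 passed in 4OHT against ctrl, where 1.49% of all genes did. It was Nfkb2, with a log2 fold change of 0.75 (edgeR, adjusted p = 0.0310). In medium against ctrl 5 passed (10.9% of all genes did), all higher in medium, with Cd40 at 1.89, Relb at 0.90 and Nfkbie at 0.74. In 4OHT against medium 1 passed (4.26% of all genes did), Cd40, which was lower in 4OHT (-1.83). Of 10 other FOXO target genes, all tested, 1 passed in medium against ctrl, Klf2, at 1.09, near the 10.9% share of all genes.

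The genes whose levels were most like those of the members that passed were found over all 14 samples after removal of the replicate effect, by Pearson's r across samples that share 5 groups. For Bcl2a1b they were Klk1b11 (0.946), Mex3b (0.940) and Nlrp3 (0.900). For Bcl2l11 they were BC005624 (0.954), Ccdc50 (0.938) and Tmem26 (0.925). For Pmaip1 they were Sgk3 (0.964), Sgk1 (0.953) and Tm6sf1 (0.950).

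Some members overlap other annotated genes in GRCm38. Bcl2a1b shares its strand with Gm29094, Bcl2 (chr1:106538178-106714274, minus strand) with Gm37053 and Mir3473f (and D630008O14Rik opposite), and Bax (chr7:45461697-45466898, minus strand) with Gm45808, while Bcl2a1d overlaps Gm10634 on the opposite strand. Bcl2l1 (chr2:152780668-152831728, minus strand), Bcl2l11 (chr2:128126038-128162547, plus strand), Mcl1 (chr3:95658788-95663176, plus strand), Pmaip1 (chr18:66458533-66465565, plus strand) and Bbc3 (chr7:16308393-16318205, plus strand) had no overlapping gene on record. Whether the counting used strand is not given in the sources used here, so reads of overlapping genes may be shared.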

How the data were processed

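QuantSeq 3′ libraries of pBMDM RNA were read 50 bases single-end. The submitters' processing notes name STAR 2.7.10a, Salmon 1.5.2, DESeq2 1.36.0, edgeR and the builds GRCh38 and GRCm38. The authors deposited expected counts for each gene, estimated and not normalized, and these were rounded here to whole numbers. The plan had spoken of counts. The authors' DESeq2 comparisons (log2 fold changes, p-values) and 14 columns of their CPM values were not used.

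Genes were kept by filterByExpr with a minimum count of 10, scaled by TMM (factors 0.910 to 1.06) and given the quasi-likelihood test of edgeR 4.0.16 under R 4.3.3, adjusted by Benjamini-Hochberg over all 12851 genes. A gene passed at an adjusted p under 0.05. All 14 samples entered 1 fit with group and replicate number, because mouse ID was a term in the study's own model. The number was assumed to mark the mouse. Deviations from the group means correlated at a median r of 0.247 between same-numbered samples (26 pairs, 0.00221 to 0.646) and -0.139 between others (52 pairs). Where the number is not the mouse, p-values measure only the spread between these samples.

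A prior count of 2 was used for log2 CPM. Alternatives were DESeq2 1.42.0, other scalings and filters, no replicate block, only the groups compared, a fold threshold, summed paralogs and leaving out each replicate. The script was tested on simulated data. Sequences and coordinates come from GENCODE M21. The members and gene lists were chosen with earlier results of these data known. All members enter every comparison, and some are given by their range. Named were, from each other list, up to 3 genes per comparison that passed with the largest change, and, for each member that passed, the 3 genes with the highest correlation, without predicted genes. The other genes named from the lists were picked to say what a list holds. Markers named were fixed with the lists. Intervals and the limit of 3 counts cover the fit or counting error only.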

Additional observations from a re-analysis of the deposited data

How the results depend on the processing

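The counts of members that passed were small and moved with the settings. Of 96 alternative values for 8 counts, 64 stayed within 1.5 times the reported count and 32 did not. The share of all tested genes that passed moved too. In 4OHT against ctrl it was 1.49%, then 0.0545% without the replicate block and 0% with only the groups compared. Without replicate 3 it was 1.99%. In 4OHT against 4OHT+Fer1 it was 1.35%, and 2.39% without replicate 3. In 4OHT+Fer1 against ctrl it was 0.0311%, then 0.00778% without the block and 0% with only the groups compared. For the interaction it was 0.0311%, and 0.208% without replicate 3. In 4OHT against ctrl, where 1 member passed, 0 passed without the replicate block, with only the groups compared or with a log2 fold threshold of 1, and 0 to 3 when a replicate was left out. In 4OHT against 4OHT+Fer1, where 0 passed, leaving out a replicate gave 0 to 3. In 4OHT+Fer1 against ctrl, where 1 passed, 0 passed without the block, with only the groups compared, with the paralogs summed, or without any 1 replicate. In 4OHT+Fer1 against Fer1, where 0 passed, DESeq2 and no filter on low counts gave 1. Of all genes 0.0233% passed in that comparison, with 0.0856% by DESeq2 and 0.0402% with no filter. In medium against ctrl, where 1 passed, DESeq2 gave 3, total counts and no filter gave 2, only the groups compared gave 5, no block and the fold threshold gave 0, and leaving out a replicate gave 0 to 4. All genes passing there moved from 10.9% to 13.6% by DESeq2, 20.5% with only the groups compared and 4.07% without the block. The share was 10.8% by total counts, 5.98% with no filter and 11.9% without replicate 3. In 4OHT against medium, where 1 passed, DESeq2 gave 2 and only the groups compared gave 3. Total counts, no block or leaving out replicate 3 gave 0. All genes passing in this comparison moved from 4.26% to 6.68% by DESeq2 and 12.1% with only the groups compared. The share was 4.2% by total counts, 0.809% without the block and 5.69% without replicate 3. The interaction gave 0 members, and 1 (Bcl2) without replicate 3, so leaving out a replicate gave 0 to 1.

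Of 280 alternative values for 28 log2 fold changes, 234 kept their direction and side of the threshold, 22 lost and 22 gained significance, and 2 reversed. Both were of Bcl2 in 4OHT against medium, 0.69 as reported, -0.26 with only the groups compared and -0.25 to 1.29 when a replicate was left out, lowest without replicate 3. Leaving out the pairing by replicate ended every call of a member, with log2 fold changes of -0.89 for Bcl2a1b in 4OHT and -1.43 in 4OHT+Fer1 against ctrl, 0.62 for Bcl2l11 and -1.23 for Pmaip1. It also left fewer passing genes among all tested, 7 in 4OHT against ctrl in place of 192. Leaving out replicate 1 or 2 ended each call of a member too, but then few genes passed at all, 2 and 0 in 4OHT against ctrl, 2 and 0 in 4OHT against medium, 0 and 3 in 4OHT+Fer1 against ctrl and 157 and 87 in medium against ctrl, so these losses say little about the members. There a medium group of 1 sample is taken to vary like the others. The alternatives for the Bcl2a1 sum were added after seeing the data. The cause of these changes was not tested. Groups held 3 or 2 samples, and Bcl2 stood at 3.58 to 19.9 CPM. Its change of -0.74 in 4OHT against ctrl had a 95% interval of -1.90 to 0.42. The differences within replicate numbers were -1.75, -1.86 and 0.90 log2 CPM.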
